A study of Danio rerio with 30 samples.

Results

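The genes described here encode the machinery of oxidative phosphorylation, and they were taken from an array experiment on the olfactory tissue of adult zebrafish. They were chosen by name, with earlier results of these data known. Within the rule, measured values served only to pick the probe set of a gene. All probe sets (groups of probes for one transcript) were taken whose single gene symbol in the platform annotation began with nduf, sdha to sdhd, uqcr, cox4 to cox8 or atp5. This gave 85 genes with 92 probe sets, out of 8793 genes with a single symbol, and where a gene had several probe sets the one with the highest mean log2 value over all arrays stood for it. By symbol, 39 of the genes belonged to complex I, 7 to complex II, 7 to complex III, 14 to complex IV and 18 to complex V. The pattern also took in 9 assembly factors, which help to build complexes I and II but are not part of them, and 2 genes for the inhibitor of complex V. It took in cox7a2l as well, classed as a factor of supercomplexes (assemblies of several complexes) and counted here with complex IV. Of the 85 genes, 84 had a log2 value over 4 in 3 or more arrays and were tested. The exception was the complex I assembly factor ndufaf8, with a mean of 2.77.

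Fish of the AB strain, 30 in number, were 1 year old and were exposed in groups of 3 to chlorpyrifos (CPF, an organophosphate insecticide), to copper (Cu) or to both. The 30 arrays, 3 in each group, match the fish in number. The 10 groups were a control without either agent, CPF at 0.1, 0.25 or 0.6, Cu at 0.1, 0.25 or 0.6, and Cu 0.25 combined with CPF at 0.1, 0.25 or 0.6. Neither the unit of the concentrations nor the length of exposure is given in the sources used here. The tissue is named as olfactory rosettes in one label, and another adds the olfactory bulbs and telencephalons. Nothing says whether the fish of a group were exposed separately, so p-values measure only the spread between these arrays.

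Complexes I to IV form the respiratory chain of the inner mitochondrial membrane. Complexes I and II take electrons from NADH and succinate, complex III passes them to cytochrome c, and complex IV hands them to oxygen. The proton gradient built on the way drives complex V, the ATP synthase. Complex II is made wholly from nuclear genes, whereas the others combine nuclear subunits with a few encoded in the mitochondrial genome, and complex IV needs copper in its catalytic core. Neurons depend strongly on this pathway, and olfactory sensory neurons of fish, which lie open to the water, are known to be sensitive to copper. No gene symbol of the mitochondrial genome was among the probe sets tested, but 4572 of the 15502 probe sets without controls carry no symbol. Every value of a member below is for a nuclear transcript.

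Most of these probe sets gave bright and steady signals. Of the 85 genes, 82 lay above 4 in all 30 arrays, and 67 of the 84 tested had a mean of at least 9. After the mean of each group and of each title batch (a date in the sample titles, whose meaning is not given) was removed, their median residual SD was 0.105 on the log2 scale. Over all 10531 probe sets tested it was 0.196. Among probe sets with a mean of at least 9, for which the noise is lower in general, it was 0.158, and for the 67 members at that level 0.0987. The steadiest were ndufa8 of complex I, with a residual SD of 0.0589, and cox6b2 of complex IV, with 0.0593. By complex the median ran from 0.0868 in complex IV to 0.152 in complex II.

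On the first principal component (13.5% of the variance) control replicate 1 had a score of 27.65, and the next in size was -17.88. By median correlation with the other arrays it was lowest at 0.9745, but CPF 0.6 replicate 2 was close at 0.9750, and the highest was 0.9875. For averaged copper and the copper trend, the calls of members are given with and without control replicate 1. The sizes of differences from control are given only with it. It also belonged to title batch 3, along with 4 arrays that all held copper. As a check of the tissue label, all 13 markers of bulb and telencephalon neurons that are on the array exceeded 4 in at least 3 arrays, as did all 4 of olfactory sensory neurons, against 2 of 11 of skeletal muscle, 6 of 12 of liver and 6 of 12 of exocrine pancreas.

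The main question for copper was how these genes differed between the 12 arrays with Cu 0.25 and the 12 without it at the same 4 CPF levels. Most members had slightly higher values with copper, in all 5 complexes. The difference was positive for 77 of 84 members (91.67%) with a median of 0.08 log2, whereas over all 10531 probe sets it was positive for 55.56% with a median of 0.02. By limma's test with Benjamini-Hochberg adjustment over all probe sets, 3 of 84 members passed the threshold of 0.05, all higher. The background was 4.35% of all probe sets called and 2.17% called higher, so the count was near it. Without adjustment, 22 of 84 members (26.19%) had a p under 0.05, 21 of them higher, and of all probe sets 19.3% did and 10.7% were higher.

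Brighter probe sets leaned the same way. Among the 1300 other probe sets with a mean from 9 to 11, the averaged copper difference was positive for 64.3% with a median of 0.038, and 46 of 49 members at that level were positive with a median of 0.089. Above 11, 64.8% of 423 other probe sets were positive, and all 18 members were. Members are genes measured on the same arrays, not replicates, and no test was made of these shares.

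**Figure D1:**
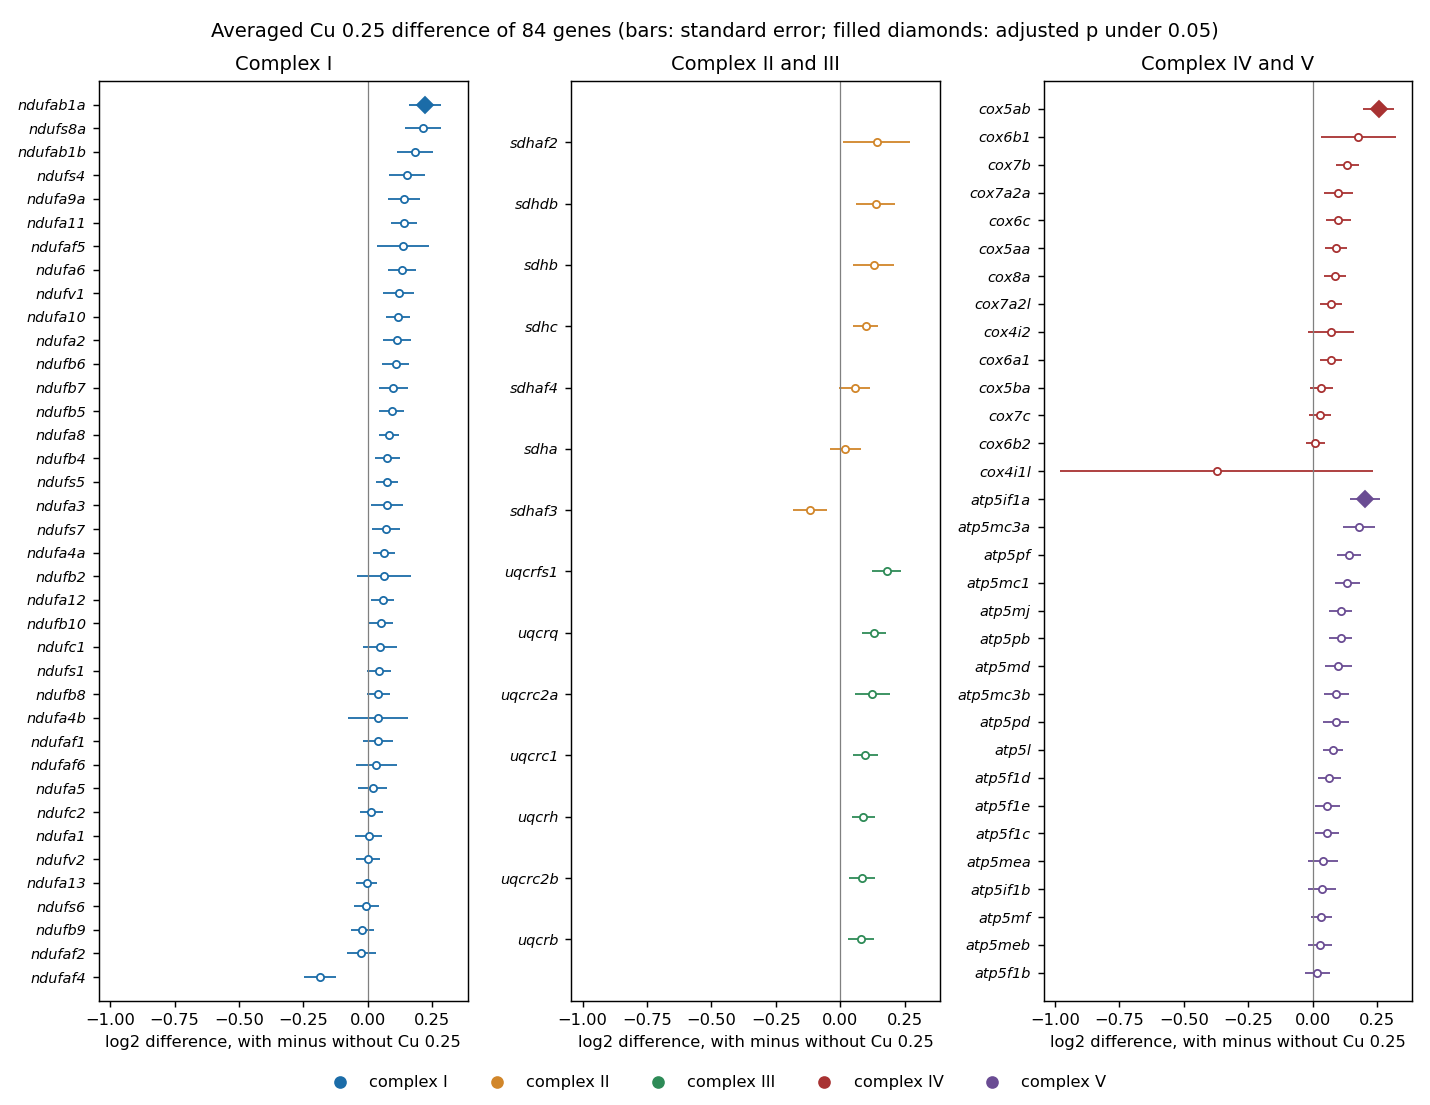
Averaged log2 difference between 12 arrays with and 12 without Cu 0.25 (x axis) for each of 84 genes (y axis), sorted within complexes. Points are limma estimates with standard errors, and filled diamonds mark the 3 genes with an adjusted p under 0.05. Most points lie just right of 0, and cox4i1l has by far the widest bar.

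The complexes did not separate. In complex I the median averaged difference was 0.07, with 33 of 38 genes positive, and in complex II it was 0.10, with 6 of 7. The value of complex II was 0.048 without replicate 3 of the mixture with CPF 0.25 and 0.015 within title batch 2. All 7 genes of complex III were positive, with a median of 0.10. Complex IV had a median of 0.08 with 13 of 14 positive, and complex V 0.08 with all 18. When the values of a complex were centred by gene, cleared of the title batch and averaged per array, the mean for complex I ran from -0.107 over -0.055 (median) to 0.084 without copper and from -0.053 over 0.026 to 0.149 with it. For complex III the corresponding values were -0.168, -0.067 and 0.090 without and -0.033, 0.061 and 0.171 with copper. For complex V they were -0.129, -0.061 and 0.064 without and -0.066, 0.029 and 0.141 with copper. In complexes I and III, 12 of 12 arrays with copper lay above the median of those without, and in complex V 11 of 12, yet the ranges overlapped in each complex. Complex II had 10 of 12 and complex IV 8 of 12, or 11 of 12 without the single gene cox4i1l. For complex IV the order of the medians depended on the title batch. They were -0.040 without and 0.019 with copper once the batch was removed, but 0.002 without and -0.015 with copper before, when 5 of 12 arrays lay above. Without cox4i1l they were -0.029 and 0.044 before the batch was removed, and 10 of 12 arrays lay above.

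**Figure D2:**
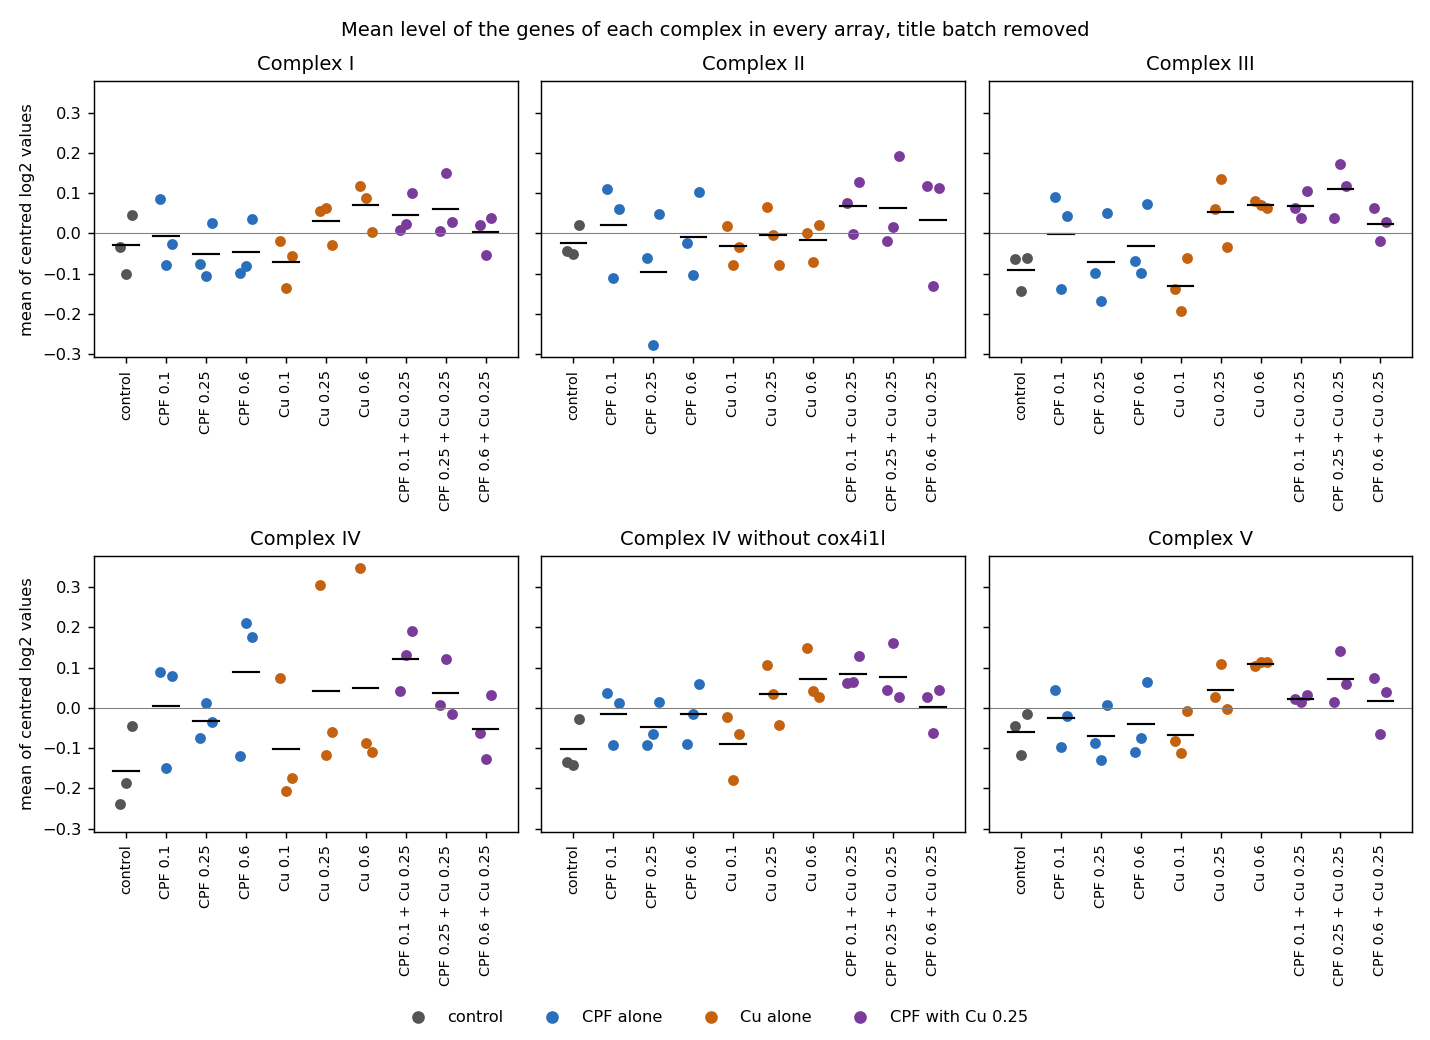
Mean of the centred log2 values of the genes of each complex (y axis) in every array, by group (x axis), with the title batch removed. Points are arrays, black lines are means of 3 arrays, and complex IV is drawn with and without cox4i1l. The groups overlap, and the wide scatter of complex IV shrinks once cox4i1l is left out.

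In complex IV the gene cox5ab passed. It encodes one of the zebrafish copies of COX5A, a small subunit on the matrix side of cytochrome c oxidase. Its log2 values ran from 9.20 over 9.38 to 9.65 in the 12 arrays without copper and from 9.48 over 9.66 to 9.84 in the 12 with it. All 12 arrays with copper lay above the median of the others, while the ranges overlapped. With the title batch removed this held for 11 members, among them cox7b and ndufa11, which did not pass. The share over all probe sets was not counted. The averaged difference of cox5ab was 0.26 ± 0.06 (SE), a ratio of 1.19, with an adjusted p of 0.0138. The call ended without control replicate 1 (adjusted p = 0.0503) and without title batch 3 (adjusted p = 0.0928), with differences of the same sign. Its copy cox5aa had a difference of 0.09 (adjusted p = 0.235), although the residuals of the pair moved together (r = 0.69 over 30 arrays).

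In complex V the gene that passed was an inhibitor, not a subunit. atp5if1a encodes a copy of ATPase inhibitory factor 1, which is known to stop the ATP synthase from running backwards and using up ATP when the proton gradient fails. Its values ran from 7.92 over 8.18 to 8.35 without copper and from 8.23 over 8.39 to 8.60 with it, and again all 12 arrays with copper lay above the median of the others and the ranges overlapped. The averaged difference was 0.20 ± 0.06 (adjusted p = 0.0455), and the call remained in 6 of 24 fits that left out 1 array each. The copy atp5if1b had 0.03 (adjusted p = 0.781), and the residuals of the pair were unrelated (r = -0.08). Among the subunits of complex V, atp5pf (coupling factor 6) had 0.14 ± 0.05 (adjusted p = 0.0921) and atp5mc3a and atp5mc1, which encode the proton-carrying ring subunit, had 0.18 ± 0.06 (adjusted p = 0.107) and 0.13 ± 0.05 (adjusted p = 0.132).

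In complex I the gene that passed was ndufab1a, which encodes the mitochondrial acyl carrier protein. This protein serves mitochondrial fatty acid synthesis as well as complex I. Values ran from 9.10 over 9.58 to 9.73 without copper and from 9.36 over 9.66 to 10.06 with it, and 10 of 12 arrays with copper lay above the median of the others. The averaged difference was 0.22 ± 0.06 (adjusted p = 0.0473), and the call remained in 7 of 24 fits that left out 1 array each. The other probe sets of ndufab1a gave 0.18 and 0.13, with adjusted p of 0.206 and 0.204. The copy ndufab1b had 0.18 ± 0.07 (adjusted p = 0.152). The iron-sulphur subunit gene ndufs8a, with 0.21 ± 0.07, did not pass (adjusted p = 0.0815).

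Only 7 members had a negative averaged difference. The lowest in complex I was ndufaf4, an assembly factor, whose values ran from 5.45 over 5.58 to 6.01 without copper and from 5.25 over 5.47 to 5.66 with it. With the batch removed, 1 of 12 arrays with copper lay above the median of the others. The difference of -0.19 ± 0.06 did not pass (adjusted p = 0.0936). In complex II the values ran from 0.14 for sdhaf2, which helps to insert the flavin of succinate dehydrogenase, to -0.12 for sdhaf3, an assembly factor of its iron-sulphur subunit. The 7 differences of complex III ran from 0.08 for uqcrb to 0.18 ± 0.06 for uqcrfs1, the Rieske iron-sulphur protein (adjusted p = 0.0724).

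The count of 3 rests on single arrays. Leaving out 1 of the 24 arrays at a time gave 0 to 7 members called. It was 0 without control replicate 1 and 7 without Cu 0.25 replicate 3. The number over all 10531 probe sets moved as well. It was 458 with every array and, for example, 450 without CPF 0.1 replicate 1 and 342 without CPF 0.6 replicate 2. In 14 of the 24 fits cox5ab alone was left. These were the fits without control replicate 2, without replicates 2 or 3 of CPF 0.1, without replicates 1 or 2 of CPF 0.25, of CPF 0.6 or of Cu 0.25, and, among the mixtures, without replicates 1 or 3 of that with CPF 0.1, replicate 2 of that with CPF 0.25 and replicates 1 or 3 of that with CPF 0.6. Within title batch 1 (12 arrays) and within title batch 2 (13 arrays), no member passed, at adjusted p of at least 0.389 and 0.318 for these 3 genes. Of all 10531 probe sets, 0 and 38 passed within these batches. There cox5ab differed by 0.24 and 0.27, atp5if1a by 0.26 and 0.21 and ndufab1a by 0.30 and 0.12.

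**Figure D3:**
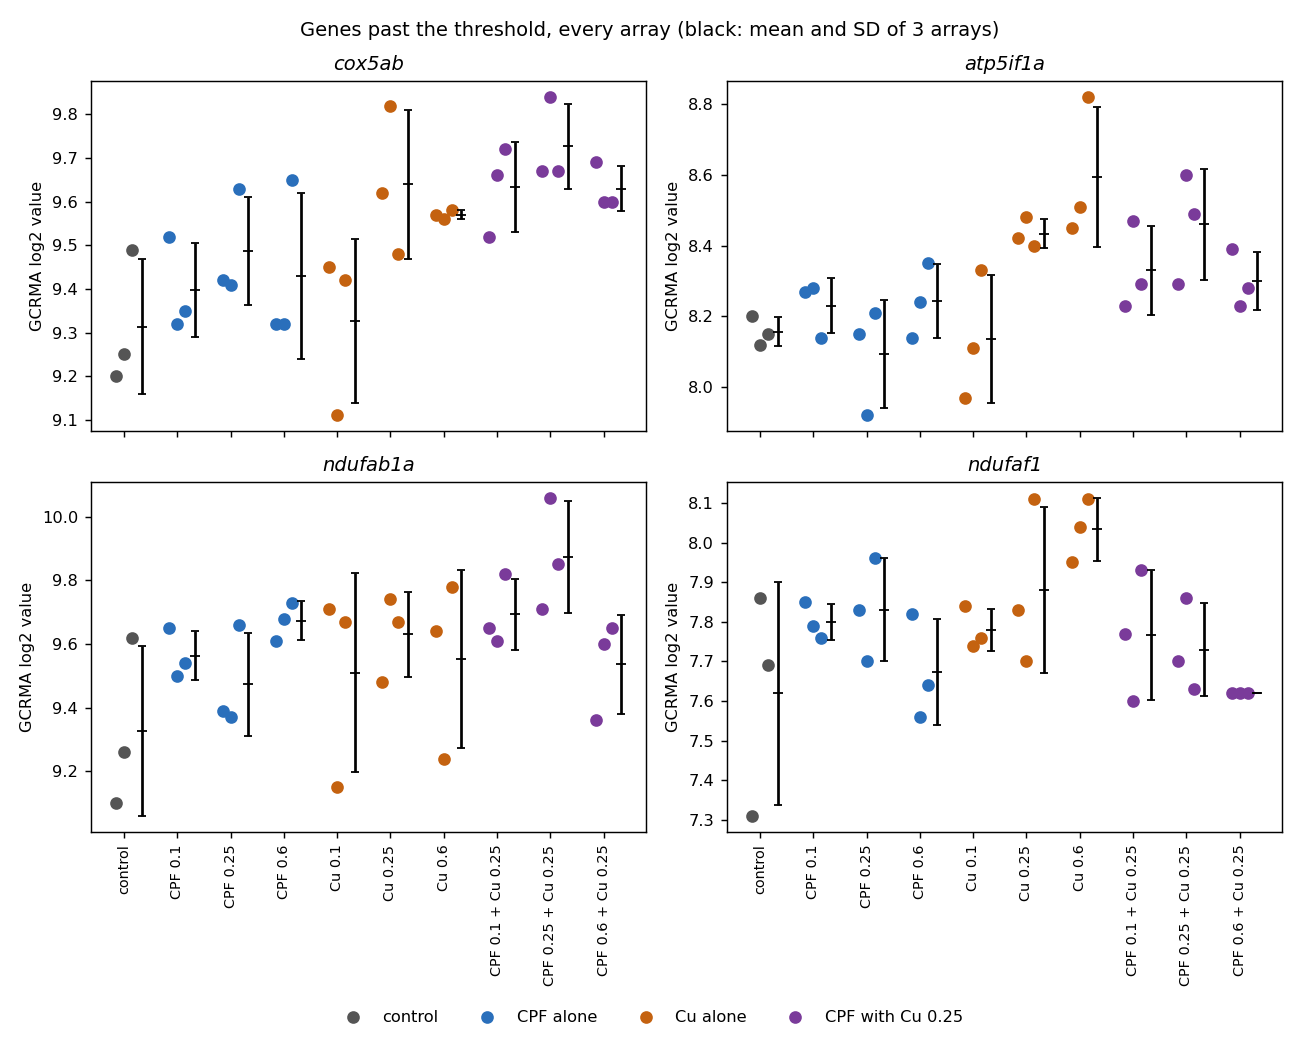
GCRMA log2 values (y axis) of the 4 genes that passed the threshold in any comparison, in every array by group (x axis). Points are arrays, and black marks give the mean and SD of 3 arrays. The mean of atp5if1a is above control at Cu 0.25 and Cu 0.6 but not at Cu 0.1, and the 3 arrays of ndufaf1 at Cu 0.6 lie above its control arrays.

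Against copper alone, the question was how the genes changed over the concentrations of copper. At Cu 0.1 the median difference of the 84 members from control was -0.03 and 30 were positive, at Cu 0.25 it was 0.08 with 62 positive, and at Cu 0.6 it was 0.12 with 74 positive. Over all probe sets the medians were 0.01, 0.03 and 0.05, with 51.41%, 56.59% and 58.34% positive. These comparisons share the 3 control arrays. No member passed at Cu 0.1 (background 0%), at Cu 0.25 (background 0.351%) or at Cu 0.6 (background 1.62%). Without adjustment 2, 12 and 12 members had a p under 0.05, where all probe sets gave 10.8%, 11% and 15%. At Cu 0.6 bright probe sets in general leaned upwards too. The 1300 other probe sets with a mean from 9 to 11 had a median of 0.118 with 72.8% positive, and the 49 members at that level had a median of 0.118 with 45 positive. Above 11 the 423 other probe sets had a median of 0.0753 with 72.8% positive, and the 18 members a median of 0.12 with 17 positive.

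A trend over the rank of the copper concentration (control, 0.1, 0.25, 0.6) was fitted on the 12 arrays of these groups within the model of all arrays. It passed for 2 of 84 members, both rising, against a background of 2.23% (1.25% rising). The trend was positive in 75 of 84 members, with a median of 0.05 per rank step. Over all probe sets it was positive for 57.41%, with a median of 0.01. Bright probe sets were not set apart for the trend. All genes of complexes III, IV and V had a positive trend, as did 32 of 38 in complex I, and complex II stood at 4 of 7. Without adjustment 24 members had a p under 0.05, all rising, against 15.1% of all probe sets (10.6% rising).

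The first of the pair was again the inhibitor atp5if1a. Its values were 8.20, 8.12 and 8.15 in control, 7.97, 8.11 and 8.33 at Cu 0.1, 8.42, 8.48 and 8.40 at Cu 0.25 and 8.45, 8.51 and 8.82 at Cu 0.6. Every array at Cu 0.25 and Cu 0.6 lay above every control array, and Cu 0.1 straddled the control. The trend was 0.16 ± 0.04 per step (adjusted p = 0.0244), and the difference at Cu 0.6 was 0.41 ± 0.11 (adjusted p = 0.0688).

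The other was ndufaf1, an assembly factor of complex I. Its values were 7.31, 7.86 and 7.69 in control, 7.84, 7.74 and 7.76 at Cu 0.1, 7.83, 7.70 and 8.11 at Cu 0.25 and 7.95, 8.04 and 8.11 at Cu 0.6. All 3 arrays at Cu 0.6 lay above the control arrays, and Cu 0.1 and Cu 0.25 overlapped with them. The trend was 0.15 ± 0.04 per step (adjusted p = 0.0361) and the difference at Cu 0.6 was 0.45 ± 0.12 (adjusted p = 0.0521). Its averaged difference for Cu 0.25 was 0.04 (adjusted p = 0.766). A second probe set of ndufaf1, with a mean of 6.63, had an averaged difference of 0.02 (adjusted p = 0.905). The trend of that second probe set is not given here. Without control replicate 1, the lowest array of ndufaf1, neither of the 2 called trends passed, nor without Cu 0.6 replicate 2 or 3. Without control replicate 2 that of ndufaf1 alone passed. Without control replicate 3 the trend of cox7b was the only one called. Neither passed without title batch 3 or with quantile normalization (adjusted p = 0.0983 and 0.0779 for atp5if1a, 0.353 and 0.0535 for ndufaf1).

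At Cu 0.1 the smallest p-values were those of ndufaf4 (-0.33 ± 0.12, adjusted p = 0.378), of the flavoprotein gene sdha (0.31 ± 0.12, adjusted p = 0.393) and of ndufa13 (-0.17 ± 0.08, adjusted p = 0.479). At Cu 0.25 they were those of uqcrq (0.27 ± 0.09, adjusted p = 0.227), cox5ab (0.33 ± 0.12, adjusted p = 0.264) and ndufs8a (0.37 ± 0.13, adjusted p = 0.268). At Cu 0.6 atp5mc1 followed ndufaf1 and atp5if1a with 0.32 ± 0.10 (adjusted p = 0.100).

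Markers of olfactory sensory neurons were lower with copper in these arrays, and in bulk tissue fewer cells of a type cannot be told apart from less RNA per cell. All 4 measured genes of that list of 16 passed in the averaged comparison, all lower, among them ompb, the olfactory marker protein, by -1.26 ± 0.19 (adjusted p = 4.426e-04) and gng13b, a G protein subunit, by -0.89 ± 0.08 (adjusted p = 3.435e-06). The summed log2 level of the list ran from 11.81 to 13.12 without copper and from 11.09 to 12.25 with Cu 0.25. It was 12.67 to 13.06 in control, 11.68 to 11.89 at Cu 0.1 and 10.62 to 10.78 at Cu 0.6. The median difference of the members from control at Cu 0.1 was -0.03, and any relation of the members to this list was not tested. Of 5 measured macrophage genes, 4 of them tested, marco and c1qc were higher, by 0.98 and 0.91, and the summed level of the 5 was 13.57 to 14.05 without and 13.89 to 14.29 with Cu 0.25. The 13 markers of bulb and telencephalon neurons had summed levels of 14.60 to 15.10 without and 14.60 to 15.03 with Cu 0.25, and 1 of them was called, th of dopamine synthesis, which was lower. Of 6 tested liver genes 2 were called, fabp10a and apoa2, both lower, and 2 had positive differences. The summed level of the 12 liver genes was 11.69 to 12.93 without and 11.99 to 12.77 with Cu 0.25. The 12 pancreas genes summed to 7.19 to 10.37 without and 7.19 to 9.65 with Cu 0.25. At Cu 0.6 the sums of further lists did not overlap with control. The erythrocyte list was at 12.98 to 14.11 against 12.51 to 12.81, and the macrophage list at 14.06 to 14.17 against 13.95 to 14.05. The list of ciliated cells was at 10.41 to 10.87 against 10.32 to 10.39, and the pancreas list at 7.28 to 7.55 against 8.34 to 8.58. Such gaps were not confined to Cu 0.6, and only examples follow. The pancreas list was below control at Cu 0.1 (7.20 to 7.93) and CPF 0.1 (7.41 to 8.26). The erythrocyte list was above control at CPF 0.1 (12.82 to 13.27), at Cu 0.25 (12.82 to 13.52) and in every mixture. The list of radial glia and oligodendrocytes was above control (13.77 to 14.01) at CPF 0.1 (14.07 to 14.11) and CPF 0.25 (14.09 to 14.19). It was also above control in the mixtures with CPF 0.1 and CPF 0.25, and overlapped with control in the other groups. The bulb and telencephalon list was above control (14.60 to 14.80) in the mixture with CPF 0.1 (14.85 to 14.94). The part of such differences in the values of the respiratory genes was not tested.

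For CPF alone no member passed the test. The median difference from control was 0.06 at CPF 0.1 (60 of 84 positive), -0.01 at CPF 0.25 (40 of 84) and 0.01 at CPF 0.6 (44 of 84). Over all probe sets the medians were 0.02, 0.01 and -0.0003, with 53.87%, 52.12% and 49.94% positive. No member passed at CPF 0.1 (background 0%), CPF 0.25 (background 0%) or CPF 0.6 (background 0.00950%), and without adjustment the counts were 2, 1 and 2, where all probe sets gave 6.87%, 5.78% and 8.48%. The smallest p-values at CPF 0.1 and CPF 0.25 were those of ndufb2, an accessory subunit of complex I, with -0.53 ± 0.21 (adjusted p = 0.674) and -0.46 ± 0.21 (adjusted p = 0.846). They were followed at CPF 0.1 by ndufaf2 (-0.28 ± 0.11, adjusted p = 0.674) and ndufa4a (0.17 ± 0.09, adjusted p = 0.758), and at CPF 0.25 by ndufs8a (0.26 ± 0.14, adjusted p = 0.895) and ndufa4a (0.16 ± 0.09, adjusted p = 0.898). At CPF 0.6 they were those of cox6b1 (0.62 ± 0.29, adjusted p = 0.580), ndufab1a (0.26 ± 0.13, adjusted p = 0.584) and ndufa4b (0.47 ± 0.23, adjusted p = 0.600). A trend over the rank of CPF passed for none (background 0%; without adjustment 1 member and 7.52% of probe sets), and the lowest p was that of the assembly factor ndufaf5 (adjusted p = 0.639). The F-test of CPF averaged over the copper levels called none (background 0.0285%; without adjustment 0 members and 4.91% of probe sets), with the lowest p for ndufs8a (adjusted p = 0.985).

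With both agents most members again had values above control. Their median difference was 0.11 for CPF 0.1 with copper (69 of 84 positive), 0.13 for CPF 0.25 with copper (70 of 84) and 0.07 for CPF 0.6 with copper (58 of 84). Over all probe sets the medians were 0.04, 0.03 and 0.01, with 57.02%, 55.51% and 52.47% positive. Bright probe sets were not set apart in these comparisons. No member passed in any mixture, against backgrounds of 0.171%, 0.180% and 0.0950%, and without adjustment the counts were 12, 17 and 4, where all probe sets gave 15.5%, 15.9% and 8.96%. The nearest was ndufab1a in CPF 0.25 with copper, at 9.71, 10.06 and 9.85 against 9.10, 9.26 and 9.62 in control. The groups did not overlap, and the difference was 0.55 ± 0.12 (adjusted p = 0.0528). ndufs8a followed in that mixture with 0.56 ± 0.13 (adjusted p = 0.0667) and had the smallest p in the mixture with CPF 0.1 (0.46 ± 0.14, adjusted p = 0.143). Both passed without control replicate 3. cox5ab was among the 3 smallest p-values in each mixture, with differences of 0.32, 0.41 and 0.32 (adjusted p = 0.219, 0.104 and 0.390).

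When copper was added to a given CPF level, the median difference of the members was 0.06 at CPF 0.1, 0.13 at CPF 0.25 and 0.05 at CPF 0.6. Over all probe sets the medians were -0.0004, 0.006 and 0.01. No member passed, against backgrounds of 0%, 0.399% and 0%. Without adjustment the counts were 4, 10 and 0, where all probe sets gave 6.79%, 9.85% and 6.21%. The smallest p-values were those of ndufaf4 at CPF 0.1 (-0.32 ± 0.12, adjusted p = 0.592), ndufab1a at CPF 0.25 (0.51 ± 0.13, adjusted p = 0.0957) and ndufaf5 at CPF 0.6 (0.38 ± 0.20, adjusted p = 0.829). Whether the copper difference depended on CPF was asked by the interaction F-test, which called no member (background 0%; without adjustment 2 members and 3.67% of probe sets), with the lowest p for ndufab1a (adjusted p = 1). A test for any difference among the 10 groups called none either (background 1.32%; without adjustment 8 members and 12.6% of probe sets), with the lowest p for atp5if1a (adjusted p = 0.163).

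**Figure D4:**
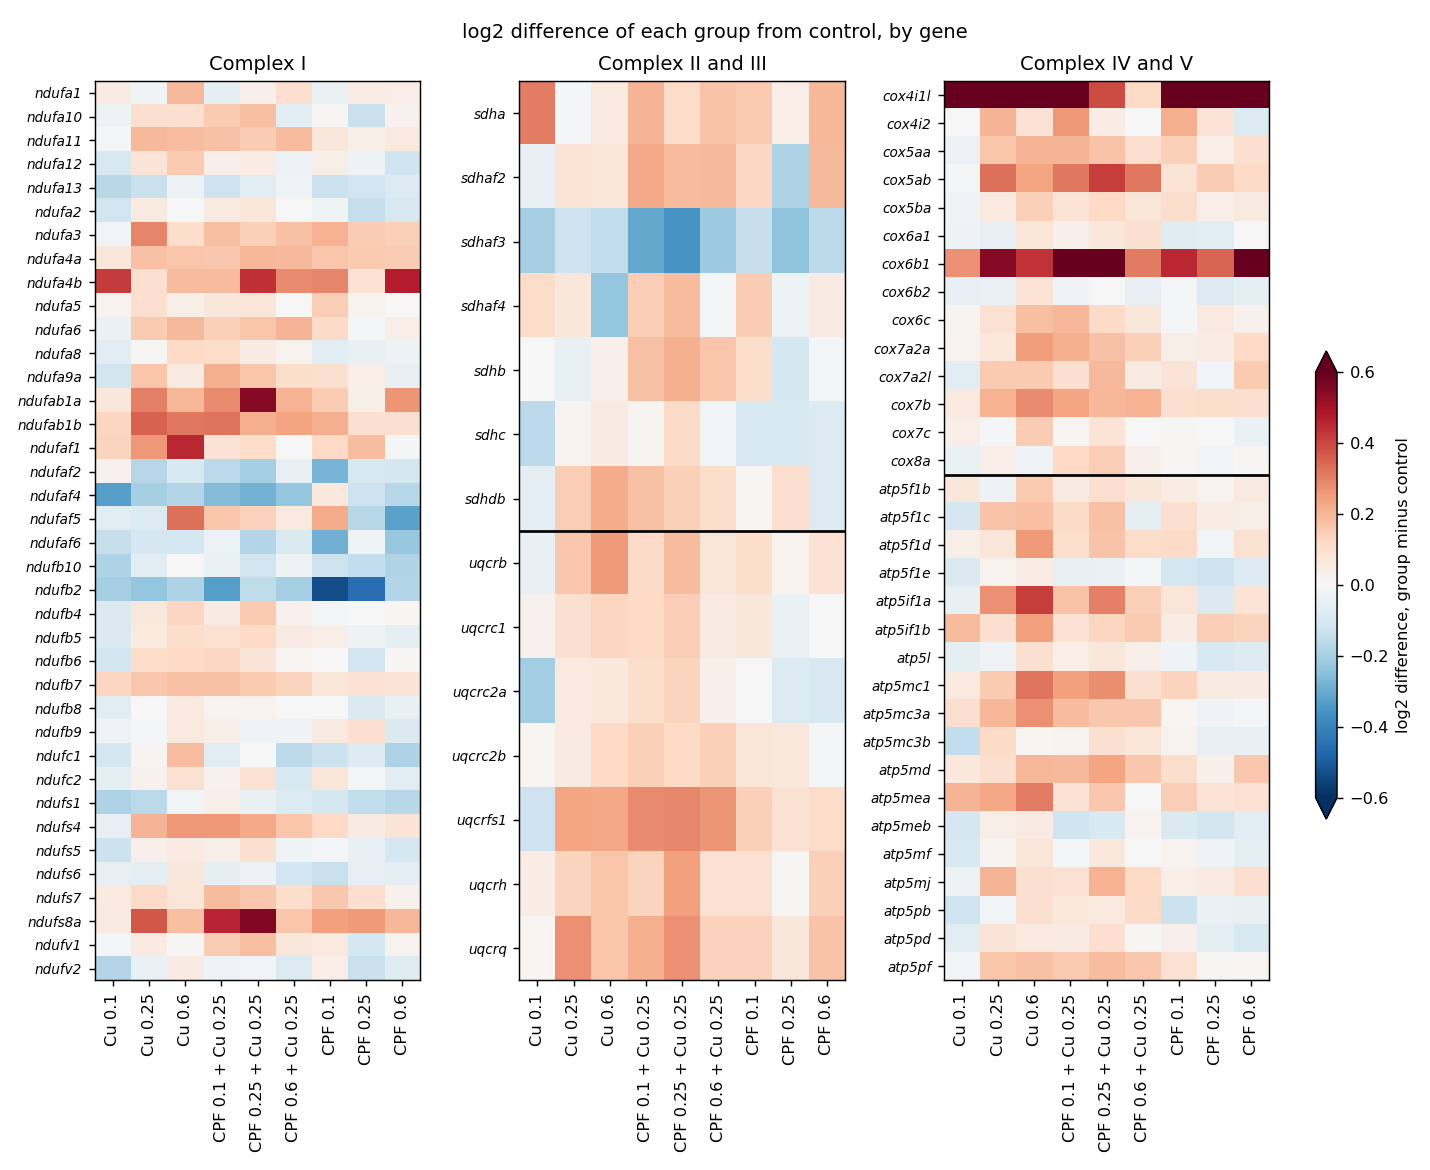
Difference of each of 9 exposed groups from control (columns) on the log2 scale for the 84 genes (rows), coloured from -0.6 to 0.6 with values beyond at the end colours. All columns share the same 3 control arrays. Complex III is red in all 5 columns with Cu 0.25 or Cu 0.6, and complex I in CPF 0.6 with Cu 0.25 is mixed (20 of 38 positive). Genes that are positive in all 9 columns include cox4i1l, cox6b1, ndufs8a and cox7b.

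Copies of one subunit gene, which zebrafish often keep from an ancient duplication of the genome, could be set side by side. Beside those given above, averaged copper differences were 0.06 and 0.04 for ndufa4a and ndufa4b, 0.12 and 0.08 for uqcrc2a and uqcrc2b, core proteins of complex III, and 0.18 and 0.09 for atp5mc3a and atp5mc3b. They were 0.04 and 0.03 for atp5mea and atp5meb and 0.18 and 0.01 for cox6b1 and cox6b2. None of these passed. Residuals of uqcrc2a and uqcrc2b moved together (r = 0.66 over 30 arrays), as did those of ndufab1a and ndufab1b (r = 0.61). Those of ndufa4a and ndufa4b (r = 0.09) and of cox6b1 and cox6b2 (r = -0.16) did not. Different probe sets of one gene could disagree: the second probe set of ndufb6 had -0.21 where the first had 0.11, and the second of ndufv2 had 0.14 where the first had 0.00, all short of the threshold. The second of ndufb6 was dim, with a mean of 3.84 against 9.27 for the first, and exceeded 4 in 5 of 30 arrays.

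Apart from the exposures, the members rose and fell together from array to array. With group and title batch removed, the median correlation over 30 arrays was 0.32 among the 3486 pairs of members, and 85.83% of pairs were positive. All pairs of tested probe sets had a median of 0.01, and pairs with means of at least 9 had 0.07. These correlations share the arrays, the normalization and 18 residual degrees of freedom, and are a description. Membership of a complex made little difference to it. The median was 0.31 within complex I, 0.16 within complex II, 0.38 within complex III, 0.27 within complex IV and 0.39 within complex V, and 0.32 between genes of different complexes. ndufa11 followed the mean of the other members most closely (r = 0.87), and ndufs4, ndufa5, ndufab1b and ndufa9a also had r above 0.84. At the other end stood the assembly factors sdhaf3 (r = -0.24), ndufaf4 (r = -0.19) and ndufaf1 (r = -0.01). The subunits ndufb2 (r = -0.13), ndufa1 (r = -0.008) and cox8a (r = 0.06) stood there too. The other assembly factors ran from r = 0.29 for ndufaf2 to 0.55 for sdhaf4. The inhibitor atp5if1a was also weakly tied to the rest (r = 0.19).

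The member cox4i1l varied far more than the rest, and it, cox6b1 and ndufa4b were picked out after their values were seen. The widest was cox4i1l, a relative of COX4I1, a nuclear subunit of complex IV that is known to carry ATP-dependent regulation. Its residual SD was 1.58, against 0.372 for the next, cox6b1, which encodes an intermembrane space subunit of complex IV. The assembly factor sdhaf2 of complex II followed with 0.328, and then ndufa4b with 0.292. cox4i1l stood at 8.48 in CPF 0.6 replicate 2, 8.47 in Cu 0.25 replicate 1, 8.27 in Cu 0.6 replicate 1 and 6.71 in Cu 0.1 replicate 1, while the other arrays of Cu 0.1, Cu 0.25 and Cu 0.6 lay between 3.23 and 4.10. Single arrays in different groups were thus high, and no group was high as a whole. Its averaged copper difference was -0.37 ± 0.61 (adjusted p = 0.789), and its difference at CPF 0.6 was 2.32 ± 1.22 (adjusted p = 0.631).

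Several of the same arrays were at the top for cox6b1. It stood at 10.58 in Cu 0.25 replicate 1, 10.56 in Cu 0.6 replicate 1 and 10.50 in Cu 0.1 replicate 1, followed by 10.46 in a mixture array (CPF 0.25, replicate 2) in which cox4i1l was low at 3.98. Its lowest values were 9.24 in control replicate 1 and in Cu 0.1 replicate 2. The residuals of cox6b1 and cox4i1l had r = 0.78. All genes with a single symbol were then ranked by the correlation of their residuals with those of cox6b1 over the 30 arrays. The first 7 were genes of glycolysis, and all 7 were in the list of 20 measured glycolysis genes used here. They were gpia (r = 0.90), pgk1 (r = 0.89), tpi1b (r = 0.89), aldoaa (r = 0.88), eno1a (r = 0.87), pgam1a (r = 0.86) and ldha (r = 0.84), which encode enzymes from glucose phosphate isomerase to lactate dehydrogenase. The eighth was bnip3lb (r = 0.79), a relative of a mammalian mitophagy receptor. Without the 2 arrays farthest from the median of cox6b1, the first 7 had r from 0.79 to 0.86, and their Spearman's rho over all 30 arrays ran from 0.74 to 0.83.

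For cox4i1l, 5 of the 8 nearest genes by residuals were in the glycolysis list, led by gpia (r = 0.82) and tpi1b (r = 0.80). cox6b1 itself was among the others. For ndufa4b, whose mammalian relative is now counted as a subunit of complex IV in spite of its name, the nearest was ldha (r = 0.82), and eno1a was also among the nearest 8 (r = 0.77). The log2 values themselves, with group and batch kept, were also set against the mean of the 20 glycolysis genes per array. There cox6b1 had r = 0.83 over all arrays, 0.78 in title batch 1 (12 arrays) and 0.80 in title batch 2 (13 arrays). The values were 0.69, 0.53 and 0.78 for cox4i1l and 0.67, 0.84 and 0.70 for ndufa4b. So close a likeness was not shared by the members as a whole. By residuals, 12 of the 84 had r above 0.5 with at least 5 of the 20 glycolysis genes, among them cox6c, ndufa5, ndufa3 and sdhc. Another 34 had no glycolysis gene above 0.5. The median over members of their median r with the glycolysis list was 0.25. For pairs of all tested probe sets the median r was 0.01, and for pairs with means of at least 9 it was 0.07. sdhaf2, with a wider spread than ndufa4b, had no glycolysis gene above 0.5 and a median r of 0.12 with the list. As cox6b1, cox4i1l and ndufa4b were chosen after their values were seen, these values are descriptions and were not tested.

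**Figure D5:**
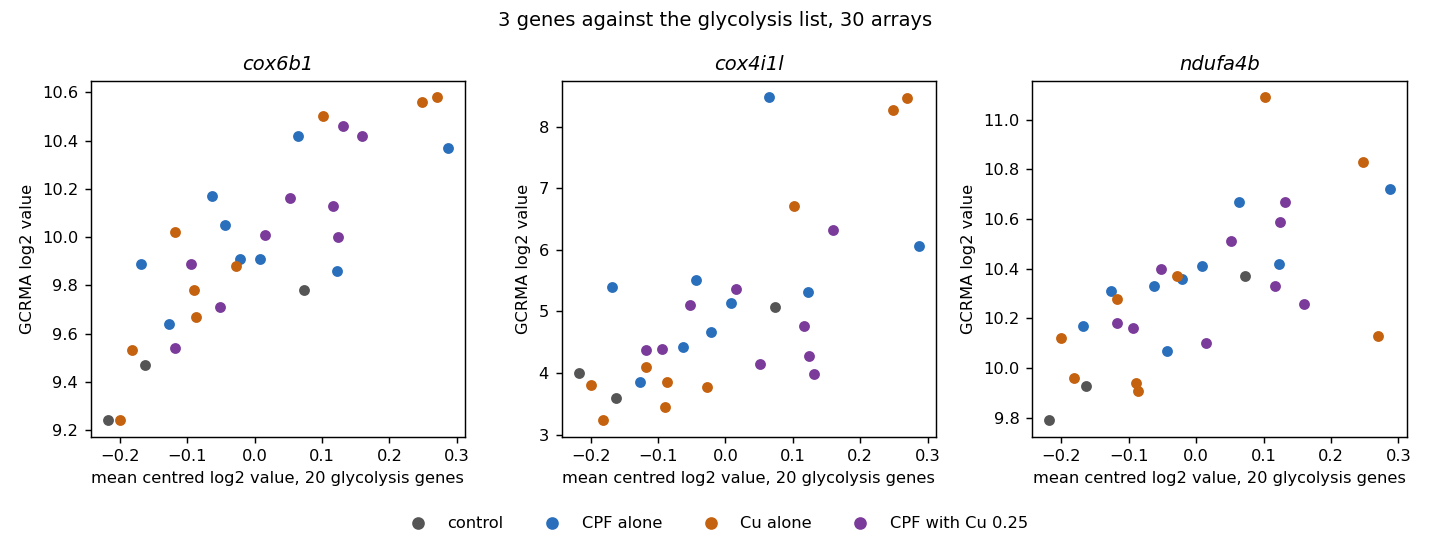
GCRMA log2 value of cox6b1, cox4i1l and ndufa4b (y axes) against the mean of the centred log2 values of 20 glycolysis genes (x axis), 1 point for each of 30 arrays, coloured by kind of exposure. cox6b1 rises with the glycolysis mean (r = 0.83), and arrays of the exposed kinds overlap. The control arrays lie towards the lower side, with cox6b1 at 9.24, 9.47 and 9.78.

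Other genes of the mitochondrion were set beside the members in the averaged copper comparison, in which 4.35% of all probe sets were called. The counts called in these lists were near that share. Of 56 genes of the mitochondrial ribosome 3 rose, mrpl20 by 0.32, mrpl30 by 0.22 and mrps24 by 0.40, and 54 were positive with a median of 0.12. Of 21 genes of the tricarboxylic acid cycle 1 rose, suclg1 of succinyl-CoA ligase by 0.21, and the median was 0.05. None of 23 genes of mitochondrial import and folding passed, all 23 were positive, and the median was 0.10. At Cu 0.6 tomm40l, a relative of the channel of the outer membrane, rose by 0.49 and the ribosomal gene mrpl52 by 0.80. The lists of assembly factors (23 genes), cytochrome c and coenzyme Q (9), mitochondrial carriers and pores (13), regulators of mitochondrial biogenesis (9), superoxide and peroxide removal (6) and glycolysis (20) had no gene past the threshold for averaged copper, with medians from 0.05 to 0.09.

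Genes that bring copper to complex IV did not pass in any of the copper comparisons. Of 7 measured, 4 were positive for averaged copper, with a median of 0.01. The metallochaperone gene cox17 had 0.02 ± 0.07 for averaged copper (adjusted p = 0.918) and -0.33 ± 0.14 at Cu 0.6 (adjusted p = 0.248). The importer gene slc31a1 had -0.09 ± 0.06 (adjusted p = 0.387) and -0.25 ± 0.11 (adjusted p = 0.281), and the mitochondrial carrier gene slc25a3b 0.06 ± 0.04 (adjusted p = 0.4995) and 0.24 ± 0.09 (adjusted p = 0.187).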

How the data were processed

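The deposited log2 expression values were made by the authors with GCRMA, per the submitters' processing notes, from 30 Affymetrix arrays, the version being not given in the sources used here. Their range, 1.02 to 15.73, fits a log2 scale. The table held 15617 probe sets, of which 115 controls were left out. Array medians lay between 5.51 and 5.61, and the number of arrays limits the precision.

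Probe sets above 4 in at least 3 arrays were kept (10531). A linear model of all 30 arrays, holding the 10 groups and the title batch (12, 13 and 5 arrays), was fitted by lmFit and eBayes of limma 3.58.1 under R 4.3.3. The Benjamini-Hochberg adjustment ran over all 10531 probe sets, and 0.05 was the threshold. Standard errors are limma's moderated ones. Complexes and lists were described by medians and counts, without a test. Cell type markers were summed on the linear scale. The fit was tried on simulated data with independent noise for each probe set and array. Such data lack the correlation between members, so they do not check the calls made here.

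The members, lists and tests were chosen with earlier results of these data known. Named genes are members past the threshold in any comparison, the 3 smallest p-values of comparisons with fewer than 3 calls, the extremes of each complex, copies of a subunit, called genes of related lists, and ompb and gng13b. Other genes were chosen after their values were seen. The numbers of replicates follow accession order and pair nothing. The alternatives named in the closing section were run one at a time, and 1 of them left out CPF 0.25 replicates 1 and 3, Cu 0.25 replicate 3 and CPF 0.6 replicate 2, known to be rich in liver or pancreas transcripts. Detection calls were not used here.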

Additional observations from a re-analysis of the deposited data

How the results depend on the processing

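No paired analysis was possible because the labels carry no replicate numbers, and the dates in the titles entered as the title batch. The median averaged copper difference of the 84 members stayed between 0.068 and 0.106 over 13 alternatives and between 0.069 and 0.091 when 1 array was left out, and that of every complex stayed positive, down to 0.015 for complex II within title batch 2. The 3 members called for averaged copper became 0 without title batch 3 and within title batch 1 or 2 (chosen after seeing the data), 1 with quantile normalization and 8 with array weights, and 0 to 7 when 1 array was left out. Without the 4 liver-rich or pancreas-rich arrays 2 others passed (ndufaf4 lower, ndufv1 higher) and none of the 3 (adjusted p = 0.0556 for cox5ab). Of all 10531 probe sets, 458 were called for averaged copper in the main model. The number was 229 without title batch 3, and 0 and 38 within title batches 1 and 2. It was 449 with quantile normalization, 782 with array weights and 327 without the 4 arrays. The 2 members with a copper trend became 1 without the assembly factors (leaving the inhibitor atp5if1a and no subunit), with no batch term or with the batch as a random block, 0 without title batch 3 or with quantile normalization, 8 with array weights, and 0 to 3 when 1 array was left out. Of all 10531 probe sets, the trend called 235 in the main model, 227 with no batch term and 212 with the random block. It called 51 without title batch 3, 224 with quantile normalization and 495 with array weights. At Cu 0.6 the count of 0 became 1 (atp5if1a or ndufaf1) with no batch term, a random block, a filter at 6 or without the 4 arrays, 3 with array weights, and 0 to 1 when 1 array was left out. Of all 10531 probe sets, 171 were called there in the main model, 173 with no batch term and 177 with the random block. Without the 4 arrays it was 184, with array weights 374, and with the filter at 6 it was 190 of 7683. For CPF 0.25 with copper the count of 0 members became 1 (ndufab1a) with the filter at 6 or median centring, 9 with array weights, and 0 to 2 when 1 array was left out. Of all 10531 probe sets, 19 were called there in the main model, 60 with median centring and 729 with array weights. With the filter at 6 it was 41 of 7683. Array weights also gave 3 members at Cu 0.1, 1 at CPF 0.1 and 7 for CPF 0.1 with copper. They gave 1 for copper added to CPF 0.25 and 12 for any difference among groups. Of all 10531 probe sets, these weights called 1460 at Cu 0.1, 263 at CPF 0.1 and 1045 for CPF 0.1 with copper. For copper added to CPF 0.25 they called 73, and for any difference among groups 2099. The search for these weights stopped before it converged. The cause of these changes was not tested. The other counts of members called stayed at 0 in every alternative run. Of the counts, complex medians and single-gene differences recomputed, none reversed; the array means of complex IV with cox4i1l, described above, turned with the removal of the batch. The number of arrays limits every call. At Cu 0.25 cox5ab had a standard error of 0.12 beside its own difference of 0.33, while the median difference of the members was 0.08. The residual SD of cox5ab, 0.135, was above the median of the members, 0.105.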
